A study of Arabidopsis thaliana with 6 samples.

Results

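The LATERAL ORGAN BOUNDARIES DOMAIN (LBD) factors of lateral roots and cambium were followed in Arabidopsis thaliana roots treated with auxin. They were listed by locus ID, with earlier results of these data known: LBD16 (AT2G42430), LBD17 (AT2G42440), LBD18 (AT2G45420), LBD29 (AT3G58190), LBD33 (AT5G06080), LBD14 (AT2G31310), LBD3 (AT1G16530), LBD4 (AT1G31320) and LBD11 (AT2G28500). Of these 9 genes, 7 have a row in the table of 20423 genes. LBD3 and LBD11 have none, so only their sequences are described here. The IAA group is whole roots of wild type Col-0 seedlings, 3 days after germination, incubated for 6 h in liquid half-strength MS medium to which the natural auxin IAA (indole-3-acetic acid) had been added at 1 µM. The Control group is roots of the same age and genotype kept for 6 h in that medium without IAA. Both groups have 3 libraries of total RNA depleted of ribosomal RNA according to the labels, each from a pool of roots, and neither carries a mutation or a transgene.

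LBD proteins are plant transcription factors that share the LOB domain, which starts with a cysteine-rich block that binds zinc and contacts DNA. In the root, auxin releases the response factors ARF7 and ARF19 from the repressor IAA14, and these factors switch on LBD16, LBD18 and LBD29 in the pericycle, where lateral roots start. LBD16 acts in the first asymmetric division of the founder cells, LBD18 and LBD29 act in initiation and in emergence of the primordium, and LBD33 pairs with LBD18. LBD3, LBD4 and LBD11 belong to another branch of the family that acts in the procambium and cambium, the dividing tissue of the vascular cylinder that thickens the root.

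The coding sequences of the cysteine block show how close the lateral root and cambium branches are. They were read from the RefSeq annotation of TAIR10.1, 5′ to 3′, with the cysteine codons in capitals. LBD16, LBD17, LBD18 and LBD29 are given for the lateral root branch, LBD4 as the measured cambium gene, and LBD3 because its block is 1 codon longer than the others.
LBD16: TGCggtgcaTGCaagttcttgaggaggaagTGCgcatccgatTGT
LBD17: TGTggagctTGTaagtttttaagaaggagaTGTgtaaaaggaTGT
LBD18: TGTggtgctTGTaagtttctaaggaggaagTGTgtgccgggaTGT
LBD29: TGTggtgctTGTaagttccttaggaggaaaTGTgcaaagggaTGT
LBD4: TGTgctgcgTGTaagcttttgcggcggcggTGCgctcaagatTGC
LBD3: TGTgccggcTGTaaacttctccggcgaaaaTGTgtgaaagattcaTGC
The block was found in 43 of 43 LBD family genes of the reference, in its 15-residue form in 42, and LBD3 is the exception with 16 residues. Over the 100 residues that start at this block, encoded proteins of the 6 lateral root genes were 63% to 88% identical (15 pairs, median 68%). The 3 cambium genes were 61.4% to 72.3% identical (median 68%). Between the branches identity was 45.5% to 53.5% (18 pairs, median 50%). LBD17 and LBD29 were the closest pair, at 88% over this stretch and 57.8% over the whole protein. LBD3 and LBD4 were the closest cambium pair, at 72.3% and 53.3%. The longest run of coding bases that a member shares with any other family gene is 15 to 29 nt, which is shorter than the 60-nt reads.

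The genes lie on chromosomes 1, 2, 3 and 5 of TAIR10.1, each with 1 annotated transcript of 2 exons, and no other annotated gene overlaps any of them. LBD16 (chromosome 2, 17663353 to 17665337, plus strand) and LBD17 (chromosome 2, 17668701 to 17669836, minus strand) point towards each other across 3363 bp with 0 genes between them. LBD18 (chromosome 2, 18718348 to 18720729, plus strand) lies 5136 bp from its family member LBD19 on the minus strand, again with 0 genes between. LBD29 (chromosome 3, 21548484 to 21549572), LBD33 (chromosome 5, 1830671 to 1831467), LBD14 (chromosome 2, 13352917 to 13353672) and LBD4 (chromosome 1, 11212958 to 11214567) are single.

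Auxin response factors bind TGTC-containing elements, so the 250 bases before each gene start were searched on both strands for the classical auxin response element TGTCTC, for its variant TGTCGG and for the core TGTCNN that both share. GCGGCG, a motif bound by LOB domain proteins, was searched for as well. Printed here are LBD29, LBD17 and LBD14, whose upstream bases align, LBD18, which has no core hexamer, and LBD33, which has TGTCTC closest to its start. Sequences are RefSeq TAIR10.1, written 5′ to 3′ on the strand of the gene, and capitals mark each TGTCNN hexamer, which reads backwards in the complementary letters where it lies on the opposite strand.
LBD29, chr3:21549573-21549822, minus strand: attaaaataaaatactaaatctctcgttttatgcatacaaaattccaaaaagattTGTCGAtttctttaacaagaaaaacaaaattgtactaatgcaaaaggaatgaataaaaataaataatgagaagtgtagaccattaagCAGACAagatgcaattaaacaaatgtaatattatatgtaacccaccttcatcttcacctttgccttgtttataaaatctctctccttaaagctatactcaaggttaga
LBD17, chr2:17669837-17670086, minus strand: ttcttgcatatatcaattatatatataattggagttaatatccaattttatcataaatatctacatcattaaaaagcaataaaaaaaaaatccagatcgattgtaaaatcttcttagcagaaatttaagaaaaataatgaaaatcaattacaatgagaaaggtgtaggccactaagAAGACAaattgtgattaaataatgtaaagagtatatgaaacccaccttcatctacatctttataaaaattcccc
LBD14, chr2:13352667-13352916, plus strand: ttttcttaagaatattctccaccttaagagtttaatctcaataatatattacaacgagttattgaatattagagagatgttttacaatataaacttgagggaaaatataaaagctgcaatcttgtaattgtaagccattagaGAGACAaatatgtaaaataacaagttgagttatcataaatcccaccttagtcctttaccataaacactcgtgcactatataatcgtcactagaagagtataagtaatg
LBD18, chr2:18718098-18718347, plus strand: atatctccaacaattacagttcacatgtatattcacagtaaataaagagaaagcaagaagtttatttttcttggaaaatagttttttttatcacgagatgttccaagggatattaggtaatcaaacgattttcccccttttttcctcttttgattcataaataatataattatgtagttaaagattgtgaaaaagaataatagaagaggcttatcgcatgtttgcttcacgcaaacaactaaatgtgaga
LBD33, chr5:1831468-1831717, minus strand: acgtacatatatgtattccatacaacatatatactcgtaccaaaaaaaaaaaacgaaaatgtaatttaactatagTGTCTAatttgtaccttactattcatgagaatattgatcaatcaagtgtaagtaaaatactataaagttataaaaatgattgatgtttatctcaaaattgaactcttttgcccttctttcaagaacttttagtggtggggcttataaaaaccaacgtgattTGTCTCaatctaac
TGTCTC was found in the windows of LBD33, 14 to 9 bases before the start, and of LBD14, 108 to 103 bases before it on the opposite strand. Of all 27443 such windows in the reference, 10.9% hold it. TGTCGG (4.16% of all windows) and GCGGCG (1.56%) were found in 0 of the members. The core TGTCNN, which includes TGTCTC and TGTCGG, was found in 8 of the 9 members and in 74.5% of all windows. These matches describe letters in a short window and say nothing about binding.

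**Figure D1:**
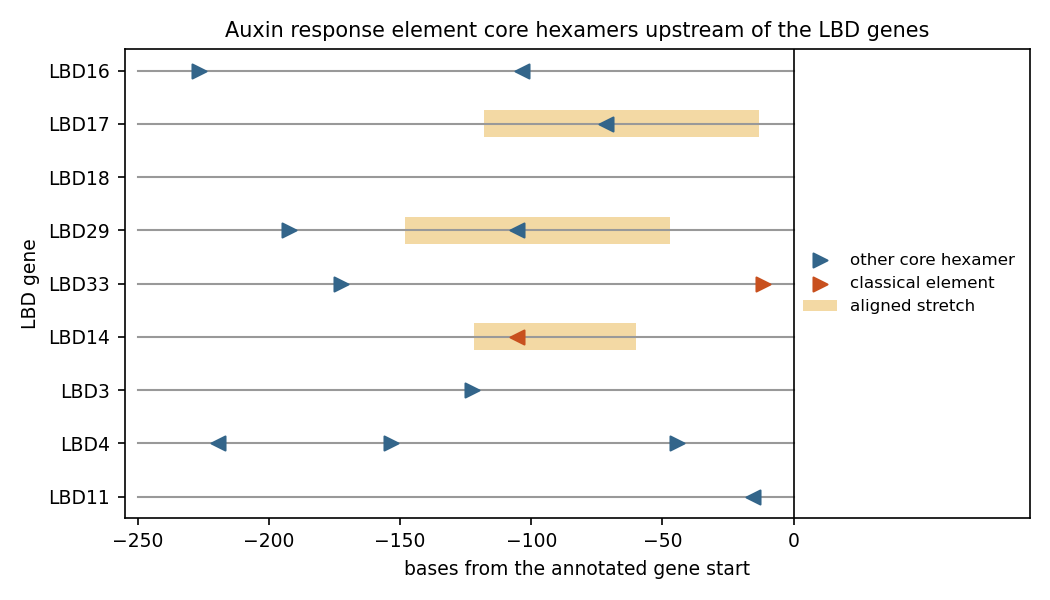
Positions of TGTCNN hexamers in the 250 bases before each of the 9 LBD genes, in bases from the annotated gene start (x axis), with triangles pointing right for the strand of the gene and left for the opposite strand, the classical element TGTCTC in orange, and the stretches that align between LBD17, LBD29 and LBD14 shaded. LBD18 has no hexamer, LBD33 and LBD14 have TGTCTC, and the hexamer inside the shaded stretch of LBD17, LBD29 and LBD14 is on the opposite strand in each.

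LBD17 and LBD29, the closest proteins, are also the closest upstream. Local alignment gave them a score of 92, with 84 of 107 aligned columns identical (78.5%), from 118 to 14 bases before the start of LBD17 and from 148 to 48 before that of LBD29. LBD17 and LBD14 had a score of 31, with 50 of 68 columns identical, and LBD29 and LBD14 a score of 24, with 48 of 68 identical. Over the other 33 of the 36 pairs the median score was 21 and the highest 25, so the LBD29 and LBD14 score lies within their range. The opposite-strand hexamer of the stretch is TGTCTT in LBD17, TGTCTG in LBD29 and TGTCTC in LBD14. All 6 of its bases fell in the same aligned columns in LBD17 and LBD29, against 5 of 6 in LBD17 and LBD14 and 4 of 6 in LBD29 and LBD14.

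Transcript levels are given as the authors' mean per group of read counts divided by size factors, which scale for sequencing depth, here called normalized reads. The table holds 0 values per library, so no spread between replicates, no test and no p-value can be given, and a fold change is the IAA mean over the Control mean. In each group the low means are whole multiples of a pair of steps, 0.3665 and 0.4255 after IAA and 0.589 and 0.6345 in Control, which account for 100% of the 5436 IAA means and 5425 Control means up to 5. The steps were taken to be what 1 read adds to a mean, an assumption on which every read number and interval here rests. Read numbers are then about 2053000 to 2384000 reads in all for IAA and 1449000 to 1561000 for Control. The paper's methods report many more high-quality reads from sequencing for each single sample than these group totals. The reason for the gap is not known, and it bears on this assumption. Why a pair of steps, and not 3, was seen for 3 libraries is not known. Brackets below hold exact 95% intervals made from those reads, which cover counting error only, not variation between plants or PCR duplicates. The median over all genes was 11.5 after IAA and 11.2 in Control, so most genes rest on few reads.

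After IAA the lateral root factors LBD29, LBD18, LBD17, LBD16 and LBD33 were 5.27 to 68.5 times their Control means, while LBD14 was listed at 0 and LBD4 stood at 0.514 of its Control mean. Of the 6 members with a mean above 0 in both groups, 5 were at least 2-fold higher after IAA and 0 were at least 2-fold lower. Among the 18236 genes with such a ratio, 16.4% were at least 2-fold higher and 15.4% at least 2-fold lower. All 5 were also at least 4-fold higher, which 4.9% of genes were, and 11.5% of the 3405 genes with a Control mean between 1.18 and 4.76, the members' range. The median log2 ratio of the 6 members was 3.76, against -0.0031 over all genes.

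**Figure D2:**
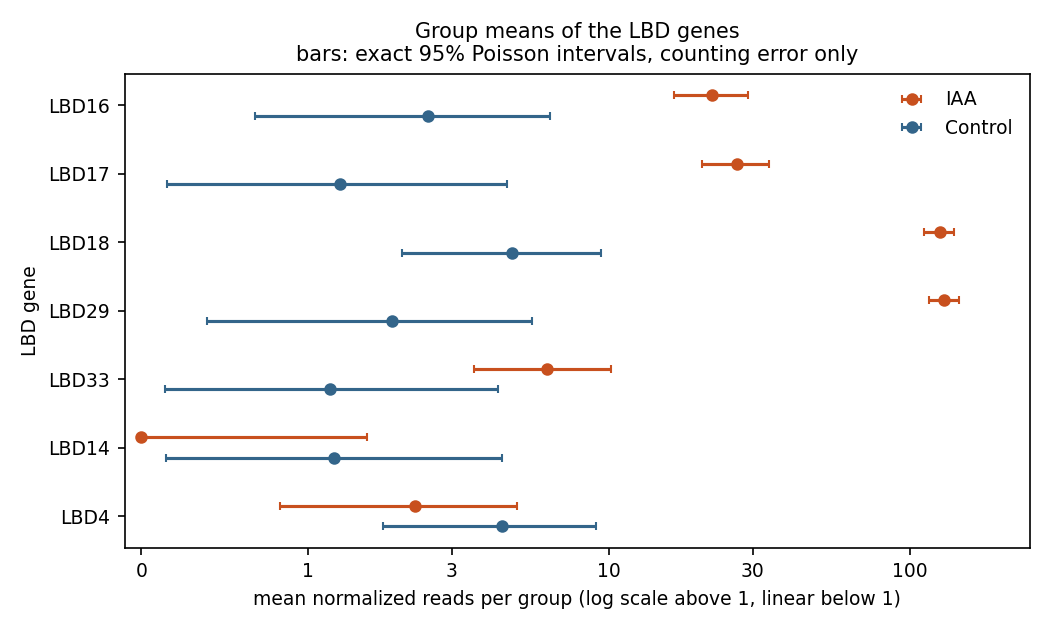
The authors' mean of normalized reads (x axis, logarithmic above 1 and linear below) of the 7 measured LBD genes after IAA (orange) and in Control (blue), with exact 95% Poisson intervals that cover counting error only. The IAA interval lies above the Control interval for LBD16, LBD17, LBD18 and LBD29, overlaps it for LBD33, and overlaps it for LBD14, at 0 after IAA, and LBD4. The share of all genes with separate intervals was not counted, so separation is not read as particular to these genes.

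LBD29, which promotes lateral root initiation and emergence, had the largest ratio of the members. Its mean was 130.12 after IAA and 1.9 in Control, from 306 to 355 reads and 3 reads. The ratio was 68.5 [23.2 to 334], or 6.10 on the log2 scale, and only 2 of the 18236 genes had a higher one. All 3 Control reads fell at the higher of the Control steps.

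LBD18, which acts with LBD16 and LBD33 in primordium formation, had a mean of 125.31 after IAA and 4.76 in Control, from 295 to 341 reads and 8 reads. This ratio was 26.3 [13.2 to 61.5], and 45 genes had a higher one. It had the highest Control mean of the members, so its ratio is the most narrowly set by counting.

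LBD17, the near relative of LBD29 that like it induces callus when overexpressed, had a mean of 26.56 after IAA and 1.27 in Control, from 63 to 72 reads and 2 reads. Its ratio of 20.9 [5.55 to 176] was exceeded by 58 genes. The wide interval comes from the 2 Control reads.

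LBD16, needed for the asymmetric division of founder cells, had a mean of 22 after IAA and 2.49 in Control, from 52 to 60 reads and 4 reads. The ratio was 8.84 [3.25 to 33.6], and 217 genes had a higher one. Its convergent neighbour LBD17 thus had the higher ratio, but the counting intervals of these ratios overlap.

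LBD33, the partner of LBD18, had a mean of 6.22 after IAA and 1.18 in Control, from 16 and 2 reads. Its ratio of 5.27 [1.24 to 47.3] was exceeded by 520 genes. The 16 IAA reads divided into 10 at the lower and 6 at the higher step, and both Control reads fell at the lower step.

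LBD14, which is repressed by abscisic acid and takes part in its effect on lateral root formation, was the lateral root member that was not higher after IAA. It was listed at 0 after IAA, where counting allows a mean of up to 1.57, and had a mean of 1.22 in Control, from 2 reads with 1 at each step. No ratio is given, and no difference was detectable at this depth.

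LBD4, which marks the boundary of phloem and procambium and promotes divisions there, was the measured cambium member. Its mean was 2.26 after IAA and 4.4 in Control, from 6 and 7 reads. The ratio was 0.514 [0.143 to 1.78], a 1.95-fold lower mean after IAA with an interval that holds 1. Of the 18236 genes, 2932 had a lower ratio. Its 6 IAA reads divided into 5 at the lower and 1 at the higher step, and its 7 Control reads into 1 and 6.

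**Figure D3:**
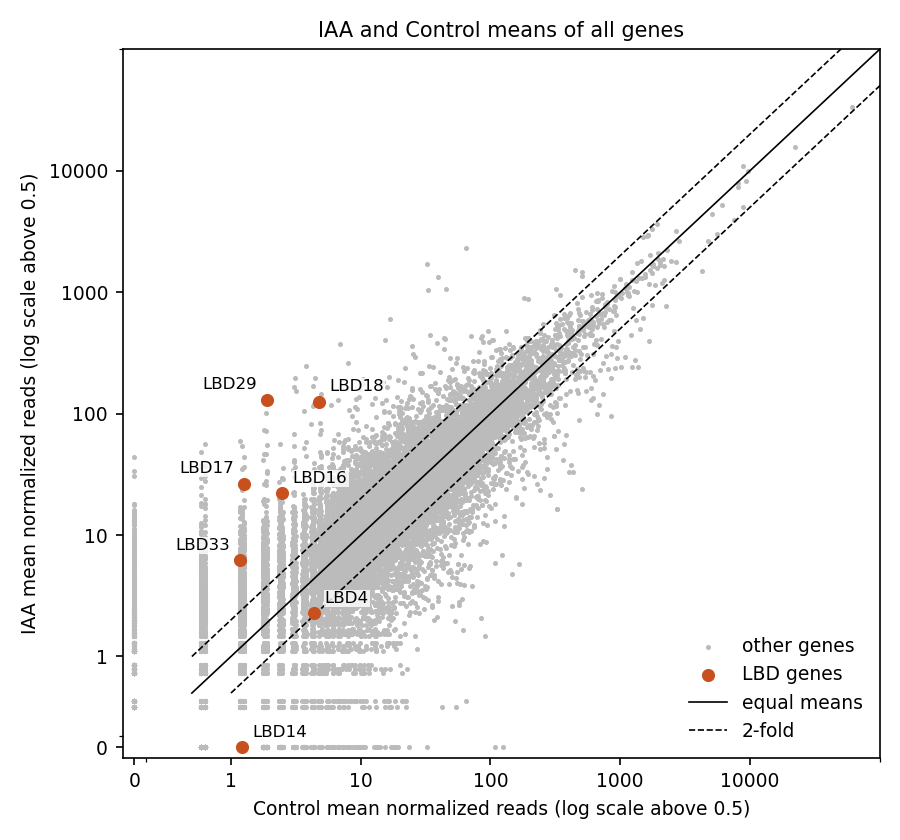
The authors' IAA mean against the Control mean of all genes (grey), in normalized reads on axes that are logarithmic above 0.5, with the 7 measured LBD genes in orange, the line of equal means solid and the 2-fold lines dashed. LBD16, LBD17, LBD18, LBD29 and LBD33 lie above the upper dashed line at Control means of 1.18 to 4.76, LBD4 lies just inside the lower one, and LBD14 is at 0 after IAA.

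The members had like, low levels in Control and widely different ones after IAA. Per kilobase of exon, the Control levels were 1.26 to 3.66 normalized reads, with counting intervals that overlap for every pair. After IAA the order per kilobase was LBD29 at 134 [119 to 150], LBD18 at 94.5 [84.0 to 106], LBD17 at 26.3 [20.2 to 33.7], LBD16 at 17.8 [13.3 to 23.3], LBD33 at 8.90 [5.09 to 14.5], LBD4 at 1.88 [0.689 to 4.09] and LBD14 at 0 [0 to 2.40]. Neighbours whose intervals overlap are LBD17 and LBD16, LBD16 and LBD33, and LBD4 and LBD14. LBD29, LBD18 and LBD17 are apart from one another, as are LBD33 and LBD4. In Control, LBD4 held the highest level per kilobase and LBD18 the next, at 3.66 and 3.59, which counting does not separate.

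**Figure D4:**
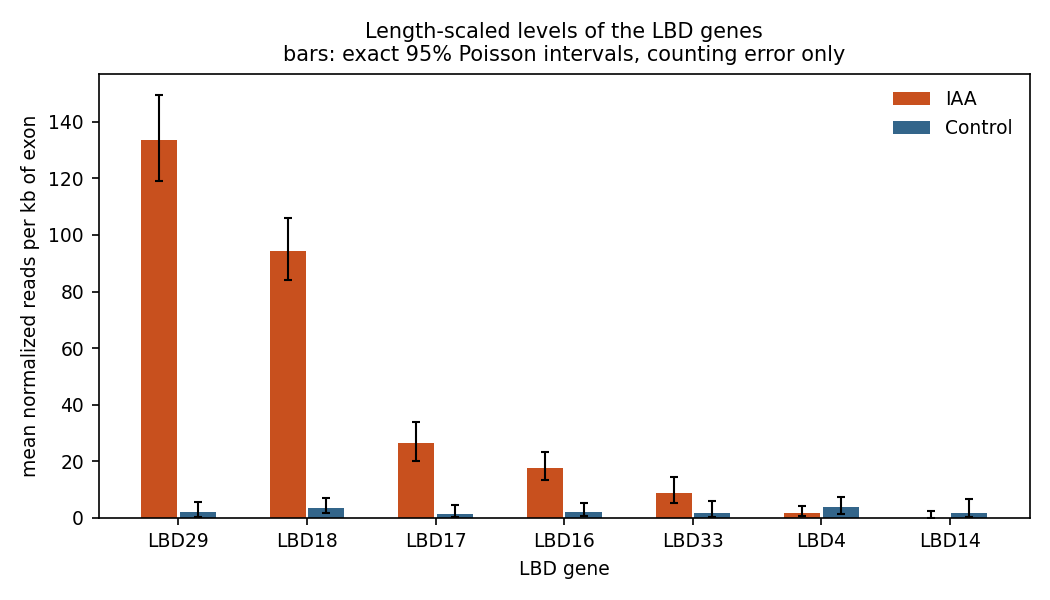
The authors' mean divided by exonic length, in normalized reads per kilobase of exon (y axis), of the 7 measured LBD genes after IAA (orange) and in Control (blue), with exact 95% Poisson intervals that cover counting error only. LBD29 and LBD18 reach 134 and 94.5 after IAA, while every Control bar is at or under 3.66.

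Summed over the 7 measured members, the means were 312.47 after IAA and 17.22 in Control, an 18.1-fold higher sum, from 738 to 850 reads and 28 reads. LBD18 and LBD29 made up 81.7% of the sum after IAA and 38.7% in Control. LBD4 made up 0.723% after IAA and 25.6% in Control. Among all genes, LBD29 and LBD18 stood above 94.9% and 94.7% of genes by IAA mean, and above 18.7% and 30.3% by Control mean. LBD33 stood above 35.4% after IAA and above 11.6% in Control, so even after treatment it stayed under the median of all genes.

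The other family genes had ratios on both sides of 1. Of the 43 LBD family genes, 20 have a row and 13 a ratio, of which 6 were at least 2-fold higher and 2 at least 2-fold lower after IAA, with a median log2 ratio of 0.51. Over all genes with a ratio, these shares were 16.4% and 15.4%. Outside the 9 members, 7 genes have a ratio, with 1 at least 2-fold higher, 2 at least 2-fold lower and a median log2 ratio of -0.46. That median is the value of LBD15, named after its values were seen, with 1 read in each group and a ratio of 0.729 [0.00928 to 57.2]. With 1 added to each mean, which takes in the genes listed at 0, 4 of 13 were at least 2-fold higher and 2 at least 2-fold lower, and the median turned to 0.26. In that setting 14.9% of all genes were at least 2-fold higher and 13.7% at least 2-fold lower. The difference between members and the other family genes has no test here. LBD41, a gene induced by low oxygen, was the higher one, with a mean of 34.74 after IAA and 6.93 in Control, a ratio of 5.01 [2.66 to 10.4]. A further 4 of the 13 genes outside the members were listed at 0 in Control only and 2 were listed at 0 after IAA only. Of all 20423 genes, 1201 were listed at 0 in Control only and 986 at 0 after IAA only. Of the 4 LBD genes at 0 in Control only, LBD19 lies next to LBD18 and is named after its values were seen. LBD19 had a mean of 7.32 after IAA from 18 to 19 reads and 0 in Control.

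The regulators of the lateral root LBD genes differed in their response. ARF19, an activator of LBD16 and LBD29 that is itself induced by auxin, had a mean of 170.32 after IAA and 44.86 in Control, a ratio of 3.80 [2.94 to 4.96]. IAA14, the repressor that holds ARF7 and ARF19 back, had 71.16 after IAA and 19.71 in Control, a ratio of 3.61 [2.46 to 5.45]. ARF7, the other activator, had 88.96 after IAA and 77.45 in Control, a ratio of 1.15 [0.915 to 1.45] whose interval holds 1.

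Of the targets and partners of the lateral root LBD proteins, 2 of 4 were at least 2-fold higher after IAA, against 16.4% of all genes with a ratio. LAX3, an auxin influx carrier in the tissue above the primordium that LBD29 regulates, had a mean of 380.98 after IAA and 38.61 in Control, a ratio of 9.87 [7.61 to 13.0]. EXPA14, a cell wall loosening expansin that LBD18 activates, had 18.1 after IAA and 5.53 in Control, a ratio of 3.27 [1.57 to 7.64]. EXPA17, another expansin downstream of LBD18, had 44.08 after IAA and 24.02 in Control, a ratio of 1.84 [1.25 to 2.74], under 2-fold. E2FA, a cell cycle regulator that LBD18 and LBD33 activate, had 6.4 after IAA and 3.63 in Control, a ratio of 1.76 [0.655 to 5.50] whose interval holds 1.

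Genes of founder cells and primordia were mostly higher after IAA: 9 of the 10 with a ratio were at least 2-fold higher and 0 at least 2-fold lower, with a median log2 ratio of 2.30. Over all genes with a ratio, 16.4% were at least 2-fold higher and 15.4% at least 2-fold lower. The list was chosen with earlier results of these data known. PUCHI, an AP2 factor that shapes the primordium, had a mean of 37.42 after IAA and 0.59 in Control, a ratio of 63.4 [11.1 to 2533] that rests on 1 Control read. MAKR4, a membrane-associated regulator in early lateral root formation, had 192.1 after IAA and 10.47 in Control, a ratio of 18.3 [11.3 to 31.8]. PLT3, a PLETHORA factor of primordia, had 113.28 after IAA and 19.35 in Control, a ratio of 5.85 [4.03 to 8.79]. WOX5, PLT5 and ACR4, which act in primordium patterning or the new root tip, had ratios of 4.17 [1.74 to 12.1], 3.91 [1.497 to 12.9] and 2.24 [1.15 to 4.69]. GATA23, which specifies founder cells and is named after its values were seen, had 7.45 after IAA and 0.59 in Control, from 1 Control read. PLT7, also named after its values were seen, likewise rests on 1 Control read.

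Cambium and procambium genes did not move one way. Of the 13 listed, 12 have a row and 8 a ratio. Of these 8, 3 were at least 2-fold higher (all genes 16.4%) and 2 at least 2-fold lower (all genes 15.4%), with a median log2 ratio of 0.34. Of these 5, CYCD3;1 and PXY have counting intervals without 1, which was not counted over all genes and is not a test. The others are CLE41 (3.38 [0.378 to 160]) and AHP6 (3 [0.336 to 142]), each with 1 Control read, and PEAR2 (0.233 [0.0222 to 1.42]), with 2 reads after IAA and 5 in Control, named here after their values were seen. PXY, the receptor kinase that maintains the procambium, had a mean of 2.44 after IAA and 30.68 in Control, which is 12.6-fold lower after IAA (ratio 0.0795 [0.0278 to 0.186]). CYCD3;1, a D-type cyclin of dividing cells, had 31.33 after IAA and 3.63 in Control, a ratio of 8.63 [3.78 to 24.3]. TMO6, which acts with LBD4 in vascular divisions, had 14.51 after IAA and 10.92 in Control, a ratio of 1.33 [0.732 to 2.49] whose interval holds 1. CLE44, which encodes a peptide ligand of PXY and is named after its values were seen, was listed at 0 in Control and had a mean of 43.94 after IAA. Also named after their values were seen are WOX14, ANT and PEAR1. WOX14 was listed at 0 in Control and had a mean of 4.88 after IAA. ANT and PEAR1 were listed at 0 after IAA and had means of 1.81 and 0.59 in Control. Over the whole list of 31 genes, 16 of the 25 with a ratio were at least 2-fold higher and 2 at least 2-fold lower, with a median log2 ratio of 1.76. The shares of all genes with a ratio were 16.4% and 15.4%, and the list was chosen with earlier results known.

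**Figure D5:**
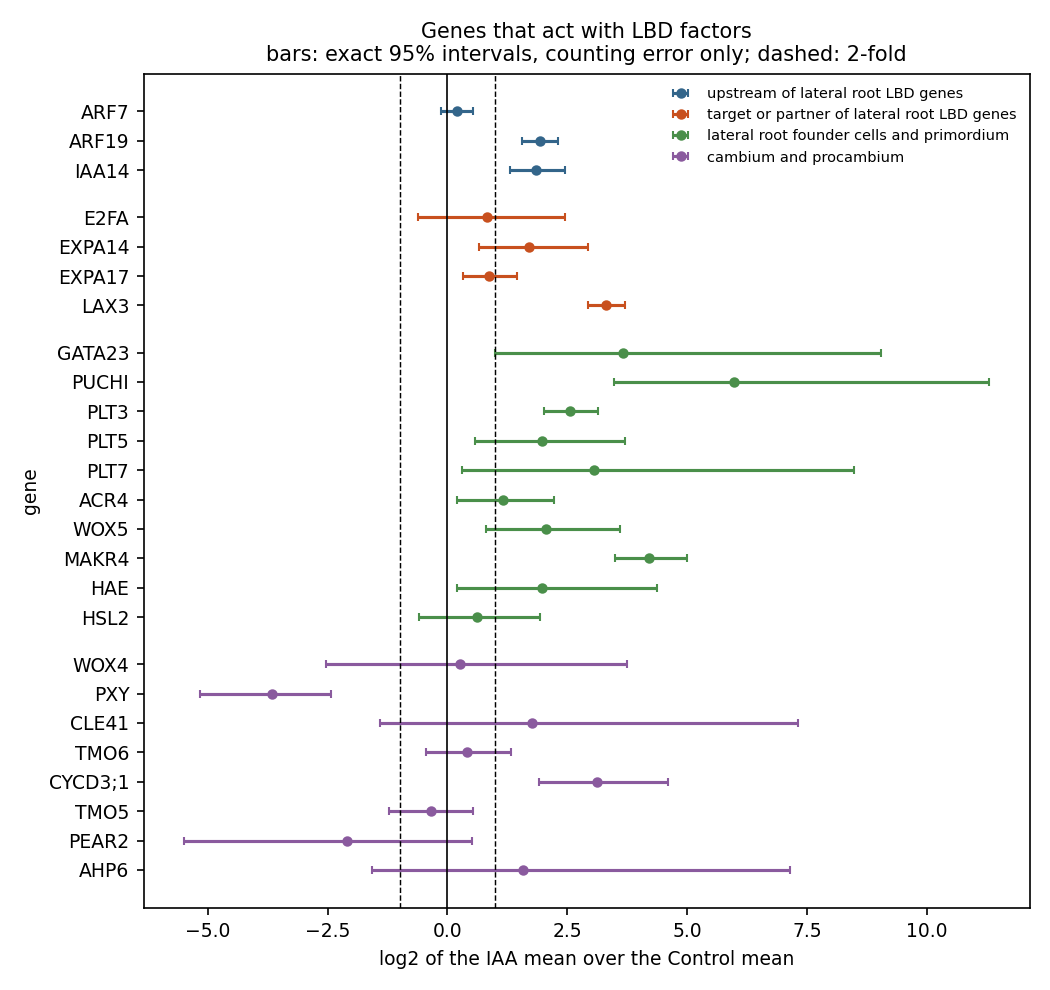
Log2 of the IAA mean over the Control mean (x axis) for the 25 genes with a ratio among the listed regulators and targets of LBD factors and the listed lateral root and cambium genes. Colours give the role, bars exact 95% intervals that cover counting error only, and dashed lines 2-fold. The points of the founder cell and primordium genes all lie right of 0, and those of the cambium and procambium genes on both sides, with PXY farthest left.

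All samples are labelled as root. Of 10 root markers, 10 have a row, with sums of 115.48 after IAA and 188.89 in Control and FEZ listed at 0 after IAA. They went different ways: CASP1 (12.32 after IAA, 59.82 in Control), COBL9 (0.43 and 20.85) and WER (2.01 and 9.11) were at least 2-fold lower after IAA, PLT2 (2.38 and 1.18) was at least 2-fold higher, and SHR, SCR, PLT1, GL2 and RCH1 lay between. Of 8 shoot markers, 4 have a row, with sums of 7.55 after IAA and 55.12 in Control, and STM, WUS, CLV3 and SPCH have none. All 4 with a row were lower after IAA, 3 of them at least 2-fold, against 15.4% of all genes with a ratio. The 4 pericycle and stele markers summed to 73.1 after IAA and 296.19 in Control, with GATA23 at least 2-fold higher and SKOR, PHO1 and WOL at least 2-fold lower. The procambium markers PXY, WOX4 and WOX14 summed to 8.79 after IAA and 31.9 in Control. Only PXY was lower after IAA (2.44 after IAA, 30.68 in Control), with WOX4 at 1.47 and 1.22 and WOX14 at 4.88 and 0. The part of these differences in the LBD values was not tested, and fewer cells of a type and less RNA per cell cannot be told apart in whole roots. Of the 11132 genes whose mean over both groups was 10 or more, 13% were at least 2-fold higher after IAA. LBD16, LBD17, LBD18 and LBD29 reach that minimum only through their IAA means, so their place among these genes was set by the minimum and nothing is read from it.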

How the data were processed

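RNA sequencing libraries of IAA-treated and Control roots (3 each per the labels) were made by the study on the SOLiD platform. Per the paper's methods and the labels, the authors mapped reads to TAIR10 with SHRiMP 2.2.3, counted uniquely mapped reads per gene with htseq-count and compared groups with DESeq. The strand setting of the counting and the versions of HTSeq and DESeq are not given in the sources used here. The deposited signal values are the authors' mean per group of read counts divided by size factors. A further 4 columns hold the authors' comparison (fold change, log2 fold change, p-value and adjusted p-value) and were not used.

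The ratio of means was computed for genes above 0 in both groups, and a ratio of at least 2-fold in either direction was counted. Reads behind a mean were recovered from its steps, to within 0.005, and gave exact Poisson intervals of levels and exact Clopper-Pearson intervals of ratios at the 95% level, from the lowest read number the steps allow. The recovery was run on data simulated with 2 steps per group, so whether a step in the real means is 1 read was not tested. IDs were matched by locus tag to RefSeq TAIR10.1 (20192 of 20423), whose coordinates are given. It is a later release than the TAIR10 annotation the authors used. Proteins were aligned globally (BLOSUM62), upstream windows locally (match 2, mismatch -3). Named in the text are all members, other LBD genes with a mean of at least 10 in a group or at least 4-fold apart, and listed regulators, targets, lateral root and cambium genes with a mean of at least 10 that pass 2-fold, plus up to 4 direct regulators or targets. Exceptions are marked. The members, lists and rule were chosen with earlier results of these data known. Alternatives were 1 or 0.5 added to each mean, 2 other scalings, a minimum mean of 10, a 4-fold threshold, and windows reaching 50 bases past the start. Python 3.11.15, pandas 2.3.3, scipy 1.17.1, biopython 1.88 and matplotlib 3.10.9 were used.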

Additional observations from a re-analysis of the deposited data

How the results depend on the processing

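The 5 lateral root members stayed at least 2-fold higher after IAA under both added values, both scalings and the 4-fold threshold. A minimum mean of 10 says nothing about them, since LBD33 is under it and the other 4 pass it only through their IAA means. The log2 ratio ranged over these settings from 5.50 to 6.17 for LBD29, 4.45 to 4.79 for LBD18, 3.60 to 4.46 for LBD17, 2.72 to 3.22 for LBD16, 1.73 to 2.47 for LBD33 and -0.96 to -0.73 for LBD4. With 1 or 0.5 added to each mean, 1 member (LBD14, log2 ratio -1.15 and -1.78) counted as at least 2-fold lower, against 0 without. LBD family genes at least 2-fold higher numbered 9 of 20 with 1 or 0.5 added, against 6 of 13. Outside the members they numbered 4 of 13 against 1 of 7, since genes listed at 0 in Control then enter. Of all genes, 14.9% were at least 2-fold higher and 13.7% lower with 1 added, and 17.2% and 17.0% with 0.5 added. LBD family genes at least 2-fold lower numbered 4 with 0.5 added, 1 with equal sums (14.1% of all genes), 1 with a minimum mean of 10 and 0 at 4-fold, against 2. Of the 31 listed regulators, targets, lateral root and cambium genes, those at least 2-fold higher numbered 9 with a minimum mean of 10 and 8 at 4-fold, against 16. Those lower numbered 4 with 0.5 added and 1 with the minimum mean, against 2. PUCHI, EXPA14, CYCD3;1 and ACR4 pass this minimum only through their IAA means and PXY only through its Control mean. Nothing is therefore read from the counts with the minimum mean. At 4-fold, 4.90% of all genes were higher and 5.53% lower. No ratio of a member changed direction. Windows reaching 50 bases past the start held TGTCTC also in LBD11 (14.2% of all windows) and TGTCNN in all 9 members (81.3%), TGTCGG and GCGGCG still in 0. No paired analysis was possible because the table holds 1 mean per group, and for the same reason no replicate could be left out. Depth limits LBD14, LBD33 and LBD4, which rest on 2 to 18 reads in all.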

Other observations

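Among the other LBD genes, the close relatives LBD37, LBD38 and LBD39, which repress anthocyanin and nitrogen-responsive genes, did not share a direction. LBD37 had a mean of 23.73 after IAA and 50.08 in Control, 2.11-fold lower after IAA (ratio 0.474, 95% counting interval 0.330 to 0.676). LBD38 had 43.71 after IAA and 72.78 in Control, a ratio of 0.601 (0.456 to 0.790). LBD39 had 33.08 after IAA and 23.2 in Control, a ratio of 1.43 (0.952 to 2.17) whose interval holds 1. The LBD37 and LBD39 intervals do not overlap, and neither do those of LBD38 and LBD39.

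LBD13, which promotes lateral root formation, had 5.54 after IAA and 11.42 in Control, a ratio of 0.485 (0.223 to 1.03). LBD36, a relative of the leaf polarity gene AS2, had 13.2 after IAA and 10.88 in Control, a ratio of 1.21 (0.661 to 2.30). Named after their values were seen, LBD40 and LBD12 were listed at 0 in Control and had means of 4.14 and 2.49 after IAA, and LBD25 was listed at 0 after IAA and had a mean of 3.72 in Control from 6 reads. Summed over the 13 family genes outside the members with a row, means were 168.81 after IAA and 180.23 in Control.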
